A study of Mus musculus with 6 samples.

Results

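The liprins are a small family of scaffold proteins, encoded in the mouse by the alpha-type genes Ppfia1, Ppfia2, Ppfia3 and Ppfia4 and the beta-type genes Ppfibp1 and Ppfibp2. All 6 genes have a row in the gene count table, which holds 24495 gene symbols, and 5 of the 6 passed the filter on low counts that left 14855 genes. The rows were taken by gene name. The family came up for description because Ppfibp2 was lower with EPZ5676 in a fit of these same libraries, so its difference between the groups, and that of its relatives, is given here as a description with no test.

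Spermatogonial stem cells, from which sperm production is renewed, were cultured and came from DBA2 mice at postnatal days 5 to 8. They were kept for 2 weeks either with 2 uM EPZ5676 or with 0.2% ethanol as the control, and each group has 3 libraries. EPZ5676 (pinometostat) is a small molecule that inhibits DOT1L, the enzyme that methylates a lysine in the core of histone H3 along transcribed genes. The series' design text calls the libraries biological triplicates, no genotype other than the strain is given, and the labels do not name the feeder cells or say what the replicate numbers stand for.

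Liprins carry coiled coils in the amino-terminal part and a row of SAM domains, which bind other proteins, in the carboxy-terminal part. Alpha-type liprins bind the LAR-type receptor tyrosine phosphatases, for which the family is named, and the scaffold proteins ELKS and RIM, and they are best known for assembling the presynaptic active zone of neurons. Outside neurons, liprin-alpha1 and liprin-beta1 sit near focal adhesions with ELKS, KANK and LL5 proteins, where microtubule ends are anchored and vesicles fuse with the cell edge. Beta-type liprins can pair with alpha-type liprins and do not bind LAR-type phosphatases themselves.

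Library totals lay between 17784332 and 54645903 counts, and the largest belonged to EPZ5676 replicate 2. Both replicate 2 libraries stood apart on the first principal component, at 21.3 and 33.2, while the other 4 lay between -15.1 and -11.9. Of the cell type markers looked up, all 14 spermatogonial genes were detected. Their summed levels were 3608 to 3947 CPM (the usual depth-scaled count, here scaled by TMM). Dazl (1671 to 1819 CPM) and Ddx4 (626 to 679 CPM) were the largest parts, so the sums say little about the other markers. Gfra1 was at 73.0, 68.8 and 66.5 CPM with ethanol and 53.2, 59.3 and 44.0 CPM with EPZ5676. In the other direction, Etv5 was at 92.8, 84.3 and 87.4 CPM with ethanol and 105, 101 and 94.3 CPM with EPZ5676. The summed level of 20 fibroblast markers, all detected, was 1960 and 2553 CPM in EPZ5676 and ethanol replicate 2 and 1488 to 1630 CPM in the other 4. Markers of Sertoli cells (7 of 8 genes in the table), neurons, macrophages, endothelium and smooth muscle summed to between 11.8 and 128 CPM. The smooth muscle sum was 80.9 and 128 CPM in EPZ5676 and ethanol replicate 2 and 47.8 to 59.9 CPM in the other 4. Acta2 and Tagln were its largest parts. The Sertoli sum was 26.2 to 43.7 CPM, most of it Wt1 at 17.5 to 35.6 CPM, and Sox9 was at 3.75 to 6.05 CPM. Gata4, Inha and Dhh averaged 1.74, 0.643 and 0.562 CPM, and Amh and Fshr were at or near 0. In bulk RNA, fewer cells of a type and less RNA per cell cannot be told apart. Dot1l itself, which an enzyme inhibitor need not change, was at 202 ± 3.92 CPM with ethanol and 243 ± 40.4 CPM with EPZ5676 (SD, n = 3), and it did not pass the edgeR test (adjusted p = 0.668).

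Shown here are the sequences that lead into the beta-type pair and into Ppfia1, the most abundant member. The RefSeq promoter table (GRCm38.p6) matched all 6 genes with 10 start sites in all, 4 of them for Ppfibp2, 2 for Ppfia4 and 1 for each of the others. Shown are the 250 bases before the first start site, 5′ to 3′ on the strand of the gene, with each GC box (GGGCGG, or CCGCCC on the other strand, overlapping matches counted) in capitals. The Ppfibp1 sequence is chr6:146888244-146888493 on the plus strand, that of Ppfibp2 chr7:107594801-107595050 on the plus strand, and that of Ppfia1 chr7:144553730-144553979 on the minus strand.
Ppfibp1: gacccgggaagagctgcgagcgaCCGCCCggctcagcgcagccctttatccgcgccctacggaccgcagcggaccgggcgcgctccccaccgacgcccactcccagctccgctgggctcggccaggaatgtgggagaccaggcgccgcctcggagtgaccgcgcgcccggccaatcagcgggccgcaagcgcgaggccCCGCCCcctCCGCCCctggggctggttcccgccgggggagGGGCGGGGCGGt
Ppfibp2: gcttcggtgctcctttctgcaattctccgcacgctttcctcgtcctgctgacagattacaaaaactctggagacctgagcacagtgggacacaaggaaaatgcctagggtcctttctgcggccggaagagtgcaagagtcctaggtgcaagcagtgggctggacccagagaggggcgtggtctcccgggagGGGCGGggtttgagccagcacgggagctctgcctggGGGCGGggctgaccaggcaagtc
Ppfia1: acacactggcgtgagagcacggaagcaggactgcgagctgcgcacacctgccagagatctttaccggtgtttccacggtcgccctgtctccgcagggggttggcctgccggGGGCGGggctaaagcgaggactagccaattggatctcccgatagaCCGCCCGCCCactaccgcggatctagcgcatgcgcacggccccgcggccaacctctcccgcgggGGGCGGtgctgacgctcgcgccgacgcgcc
Ppfibp1 had 5 GC boxes, 35 CpG dinucleotides and a GC content of 78.0%, and Ppfia1 had 4, 30 and 69.2%. The first Ppfibp2 start had 2 GC boxes, 11 CpG dinucleotides and a GC content of 61.2%. Upstream of its other 3 start sites there was no GC box, the number of CpG dinucleotides was 2 or 3, and the GC content was 49.2% to 50.4%. Over all 32851 promoters of the same length, 32.7% held a GC box, the median GC content was 52.4% and the median number of CpG dinucleotides was 6. By CpG number, Ppfibp1 stood at the 97.0th percentile of these promoters, Ppfia1 at the 94.1st and the first Ppfibp2 start at the 64.4th. A CCAAT box (CCAAT or ATTGG), present in 33.8% of promoters, occurred 3 times before Ppfia3, 2 times before Ppfia1 and 1 time before Ppfibp1, and not in the windows of Ppfibp2, Ppfia2 and Ppfia4. The counts are per gene and do not say which start site was used in these cells.

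In the ethanol libraries the culture expressed mainly Ppfia1 and Ppfibp1, which encode liprin-alpha1 and liprin-beta1. Set per kilobase of coding length, so that genes can be compared, the mean level was 81.2 ± 5.08 CPM per kb for Ppfia1 and 55.2 ± 1.65 CPM per kb for Ppfibp1 (SD, n = 3). Then came Ppfia4 at 9.11 ± 0.135 and Ppfibp2 at 6.49 ± 1.41 CPM per kb. Ppfia3 followed at 0.599 ± 0.266 CPM per kb and Ppfia2 was last at 0.0364 ± 0.00887. Each gene's 3 ethanol values lay wholly above those of the next gene in this order. The closest neighbours were Ppfia4 and Ppfibp2, at lowest 9.01 and at highest 7.44 CPM per kb. Per kilobase of the longest protein-coding transcript the order of means was the same, with 5.35 for Ppfia4 and 4.60 CPM per kb for Ppfibp2, closer together. Among 13887 tested genes with a coding length, Ppfia1 ranked at the 83.5th percentile of ethanol levels, Ppfibp1 at the 75.3rd, Ppfia4 at the 37.5th, Ppfibp2 at the 32.8th and Ppfia3 at the 5.98th.

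**Figure D1:**
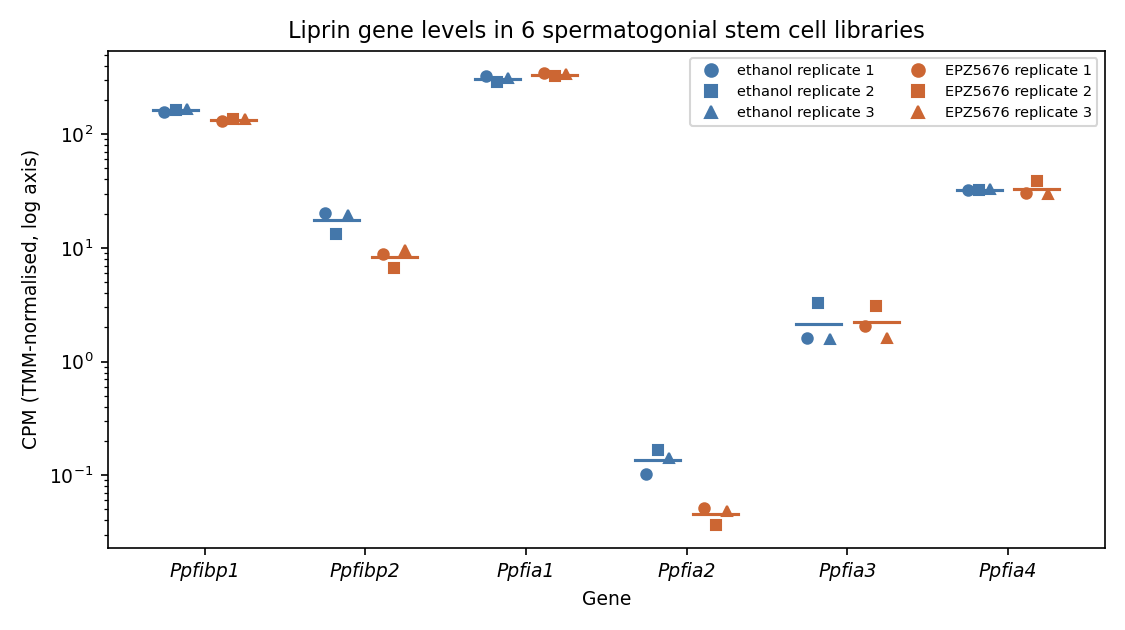
Level of each liprin gene in CPM (TMM-normalised, log axis) in the 3 ethanol and 3 EPZ5676 libraries; points are libraries, their shape gives the replicate number, and lines are group means. Ppfibp2 runs from 13.2 to 20.2 CPM with ethanol and from 6.66 to 9.60 CPM with EPZ5676, and both of its replicate 2 values are the lowest of their group.

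Ppfibp2, which encodes liprin-beta2, was at 20.2, 13.2 and 19.4 CPM in ethanol replicates 1, 2 and 3 and at 8.85, 6.66 and 9.60 CPM in EPZ5676 replicates 1, 2 and 3. The groups did not overlap, and replicate 2 was the lowest library in both. The raw counts behind these levels were 397, 236 and 409 with ethanol and 173, 367 and 197 with EPZ5676. Group means were 17.6 ± 3.82 CPM with ethanol and 8.37 ± 1.53 CPM with EPZ5676 (SD, n = 3). The log2 fold change was -1.09 ± 0.21 (SE) without the replicate number in the model and -1.06 ± 0.11 with it as a block, 2.12-fold and 2.09-fold lower. Ethanol exceeded EPZ5676 by 2.28-fold in pair 1 (exact 95% interval 1.90 to 2.74), 1.99-fold in pair 2 (1.68 to 2.34) and 2.02-fold in pair 3 (1.70 to 2.41). These intervals cover counting error only, and all 3 overlap. Both fits gave Ppfibp2 the lowest log2 fold change among the 10686 tested genes that averaged 5 CPM or more, which is the measure it was chosen by. Genes under that level reached lower values: over all 14855 tested genes the lowest was -2.55 without the block.

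Ppfibp1, the other beta-type gene, was at 157, 165 and 165 CPM with ethanol and 131, 135 and 138 CPM with EPZ5676 in replicates 1, 2 and 3. Here too the groups did not overlap, and the libraries within a group lay close together. Its log2 fold change was -0.27 ± 0.07 (SE) without the block and -0.27 ± 0.05 with it, 1.20-fold lower. The log2 differences within pairs were -0.25, -0.29 and -0.26, a narrower spread (SD 0.0175) than that of Ppfibp2 (SD 0.109). Ppfibp1 had 2570 to 7442 counts per library and Ppfibp2 173 to 409, so counting error alone widens the Ppfibp2 spread more. The 2 spreads therefore do not show which gene was steadier between replicates. Ppfibp1 is also expressed by fibroblasts. The summed fibroblast markers were 1501 and 1488 CPM with EPZ5676 and ethanol in pair 1, 1960 and 2553 CPM in pair 2, and 1630 and 1625 CPM in pair 3. Fn1 was the largest part of each sum, at 655 and 558, 666 and 888, and 730 and 604 CPM in the same order. Without the block, Fn1 (0.0004), Prrx1 (0.03), Twist1 (0.21) and Fbn1 (0.33) had positive log2 fold changes. All other fibroblast markers had negative ones, from -0.42 (Dcn) to -0.01 (Loxl1), so the sums do not show the direction of most markers. The part of fibroblast RNA in the Ppfibp1 difference was not tested. The ratio of Ppfibp1 to Ppfibp2 per coding length was 7.16, 11.5 and 7.85 with ethanol and 13.7, 18.7 and 13.2 with EPZ5676.

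Ppfia1 lay in the opposite direction by a small amount. It was at 325, 288 and 313 CPM with ethanol and at 344, 326 and 336 CPM with EPZ5676 in replicates 1, 2 and 3. The groups stood apart by less than 1 CPM, between ethanol replicate 1 (325.5 CPM) and EPZ5676 replicate 2 (325.9 CPM). Its log2 fold change was 0.12 ± 0.07 (SE) without the block and 0.12 ± 0.05 with it, and the log2 differences within pairs were 0.08, 0.18 and 0.10. Ppfia1 had 5134 to 17962 counts per library.

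Ppfia4, which encodes liprin-alpha4, showed no common direction. With ethanol it was at 32.2, 32.1 and 33.0 CPM in replicates 1, 2 and 3, and with EPZ5676 at 30.2, 39.1 and 29.8 CPM. EPZ5676 replicate 2 was above all ethanol libraries and the other 2 EPZ5676 libraries were below them, so the groups overlapped. The log2 fold change was 0.03 ± 0.13 (SE), with within-pair differences of -0.09, 0.29 and -0.15. Without both replicate 2 libraries it was -0.12 ± 0.09.

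Ppfia3 and Ppfia2, best known from neurons, were the least abundant members. Ppfia3 had 32, 58 and 33 counts with ethanol and 40, 170 and 33 with EPZ5676 in replicates 1, 2 and 3. As levels these were 1.63, 3.25 and 1.57 CPM against 2.05, 3.08 and 1.61 CPM. Replicate 2 was highest in both groups, and the groups overlapped, with a log2 fold change of 0.11 ± 0.36 (SE). Its exact 95% intervals of the EPZ5676 to ethanol ratio included 1 in all 3 pairs and reached from 0.614 to 2.07. The 8 neuronal markers summed to 29.1 and 32.8 CPM in the replicate 2 libraries and to 14.5 to 21.5 CPM in the other 4. Tubb3 was the largest part except in ethanol replicate 2, where Stmn2 was, at 10.1 CPM. With ethanol, all but Snap25 and Syt1 were highest in replicate 2. With EPZ5676, all but Syt1, Rbfox3 and Syn1 were. The part of these markers in the Ppfia3 level was not tested. Ppfia2 had 2, 3 and 3 counts with ethanol and 1, 2 and 1 with EPZ5676, too few for the filter. As levels these were 0.102, 0.168 and 0.142 CPM against 0.0511, 0.0363 and 0.0487 CPM, and the groups did not overlap. The Ppfia2 ratio of EPZ5676 to ethanol was 0.503 in pair 1 (exact 95% interval 0.00852 to 9.66), 0.216 in pair 2 (0.0180 to 1.89) and 0.342 in pair 3 (0.00652 to 4.26). Each interval includes 1, so no difference was detectable within a pair at this depth.

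Of the 5 tested liprins, Ppfibp1 and Ppfibp2 had lower and Ppfia1 had higher EPZ5676 groups that did not overlap, in a table where 14.9% of all tested genes had such groups, 7.64% lower and 7.22% higher. Over all tested genes the edgeR test called 0 (0%) without the block and 0.653% with it, 0.33% lower and 0.323% higher, and no call is given for a liprin. Since this contrast chose the family, nothing is read from these counts.

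**Figure D2:**
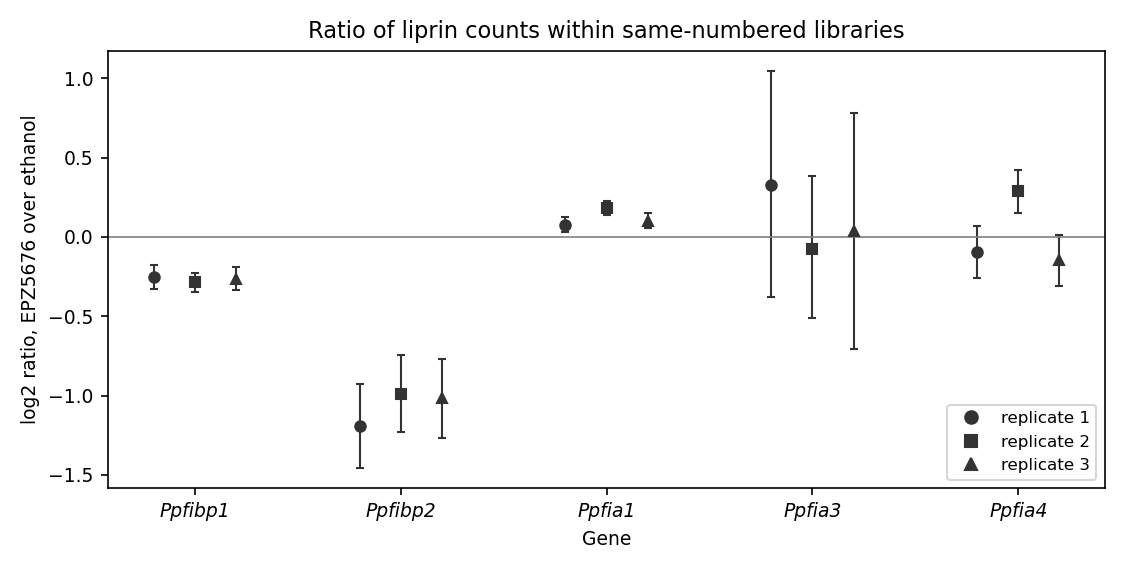
The log2 ratio of EPZ5676 to ethanol counts within each same-numbered pair, scaled by effective library size, for the 5 tested liprin genes; bars are exact 95% intervals that cover counting error only. The Ppfibp2 points lie between -1.19 and -0.99, those of Ppfibp1 between -0.29 and -0.25 and those of Ppfia1 between 0.08 and 0.18, while Ppfia3 and Ppfia4 have points on both sides of 0.

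The summed liprin message per coding length was 153 ± 5.26 CPM per kb with ethanol and 147 ± 0.850 CPM per kb with EPZ5676 (SD, n = 3), and the replicate 2 ethanol library, at 147, fell within the EPZ5676 range of 146 to 148. Its make-up differed more than its sum. Beta-type genes gave 38.9%, 41.6% and 40.8% of it in ethanol replicates 1, 2 and 3 and 32.5%, 33.1% and 34.1% in EPZ5676 replicates 1, 2 and 3, and the groups did not overlap. On average the beta-type share was 40.4% with ethanol and 33.3% with EPZ5676, and Ppfibp1 alone gave 36.2% and 31.2% of the whole. Ppfibp2 gave 12.3%, 8.00% and 11.3% of the beta-type message with ethanol and 6.80%, 5.07% and 7.03% with EPZ5676. Within the alpha type, Ppfia1 held 89.3 ± 0.821% with ethanol and 89.9 ± 1.76% with EPZ5676, and the groups overlapped. These shares do not depend on how libraries are scaled, but they rest on the contrast that chose the family.

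**Figure D3:**
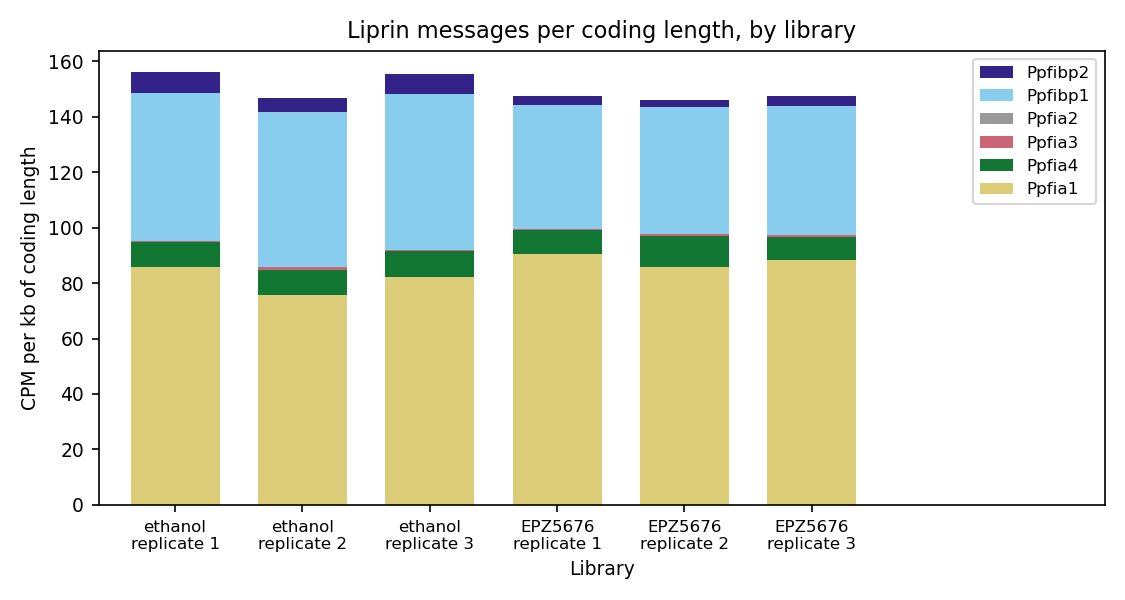
Stacked levels of the 6 liprin genes in CPM per kb of coding length, 1 bar per library. Ppfia1 and Ppfibp1 make up most of every bar; the 2 beta-type parts together are 38.9% to 41.6% of the ethanol bars and 32.5% to 34.1% of the EPZ5676 bars.

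Overlapping and nearby genes bear on how these counts can be read. In GENCODE M21, Cyb5r2 and 5330417H12Rik overlap Ppfibp2 on the opposite strand and Gm44772 on the same strand. Cyb5r2 had 20 counts over all 6 libraries, against a mean of 296.5 per library for Ppfibp2, and 5330417H12Rik and Gm44772 are not in the rows analysed here. Whether the counting used strand is not given in the sources used here, so reads of such partners cannot be told apart. For Ppfia2 the overlapping gene Acss3 had 360 counts in all, many more than Ppfia2 itself. The tested genes nearest to Ppfibp2 in the order of the reference gene table were Syt9 and Rbmxl2 on one side, 2 and 4 genes away, and Nlrp10 and Eif3f on the other, 68 and 69 genes away. Syt9, a synaptotagmin gene, had a log2 fold change of -0.22 ± 0.26 (SE) and lay at 124, 68.2 and 128 CPM with ethanol and 101, 65.2 and 109 CPM with EPZ5676. Like Ppfibp2 it was lowest in both replicate 2 libraries. Its groups overlapped. It was lower with EPZ5676 in all 3 pairs, a pattern whose share over all genes was not counted. With the block its log2 fold change was -0.20 ± 0.06 (SE). Rbmxl2, Nlrp10 and Eif3f had log2 fold changes of 0.10 ± 0.25, 0.29 ± 0.30 and -0.02 ± 0.07 without the block. With the block these were 0.04 ± 0.18, 0.30 ± 0.31 and -0.02 ± 0.05. None of these 4 genes passed the edgeR test: adjusted p was 0.877, 0.948, 0.869 and 0.959 in the order named and 0.174 to 0.937 with the block.

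Profiles over the 6 libraries were compared with that of Ppfibp2 by the root mean square difference of log2 CPM after centring each gene, over 10685 other genes that averaged 5 CPM or more. The nearest were Ror2 (0.198), a receptor for WNT5A, Fam49a (0.209), Efhb (0.231), which encodes an EF-hand protein, Ubash3b (0.240), a protein phosphatase gene, and Psmb8 (0.244), a subunit of the immunoproteasome. The median over all genes was 0.575. Ror2 was at 10.8, 6.55 and 11.7 CPM with ethanol and 6.75, 4.46 and 5.85 CPM with EPZ5676, so both of its replicate 2 values were the lowest of their group too. Psmb8 went by 14.1, 12.4 and 17.8 CPM with ethanol and 9.46, 7.38 and 11.5 CPM with EPZ5676. Ppfibp1 ranked 605th by this measure, at 0.454, and Ppfia1 and Ppfia4 lay beyond the median, at 0.602 and 0.615. The likeness uses the treatment difference and the position of the replicate 2 libraries at once, and it is a description of 6 libraries.

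Genes of liprin partners were read as 5 lists of 69 different genes, of which 67 were tested. Without the block, the edgeR test called 0 of the 67 after Benjamini-Hochberg adjustment, as it called 0 of all 14855 genes (0%). At an unadjusted p under 0.05 there were 5 of 67 partners and 1101 of all genes (7.41%). DESeq2 called 1 of these partners, Ptprd, which was higher, where it called 52 of all genes (0.35%). Likewise edgeR with the replicate block called Ptprd alone, where 97 of all genes (0.653%) were called. Over the 67 genes 36 log2 fold changes were positive and 31 negative, with a median of 0.02, and over all genes the median was -0.01.

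Among the LAR-type receptor phosphatases, the receptors that bind liprin-alpha, Ptprd was the gene that rose in the blocked fit. It was at 11.6, 13.3 and 10.4 CPM with ethanol and 18.5, 18.4 and 16.7 CPM with EPZ5676 in replicates 1, 2 and 3, and the groups did not overlap. Its log2 fold change was 0.60 ± 0.10 (SE) with the block, and its adjusted p in the edgeR test was 0.0499, against 0.507 without it and 0.0355 in DESeq2. Ptprd was already known to be called when the list was drawn up. The other 2 receptors were far more abundant and did not pass. Ptprf was at 512 ± 11.3 CPM with ethanol and 553 ± 71.1 CPM with EPZ5676, and Ptprs at 225 ± 19.4 and 225 ± 48.8 CPM (SD, n = 3).

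The active zone and vesicle scaffolds held 24 tested genes, 11 with a positive and 13 with a negative log2 fold change and a median of -0.05. Of these, 0 were called by edgeR in either fit or by DESeq2 without the block, with 3 at an unadjusted p under 0.05 in edgeR without the block, beside 7.41% of all genes, and 6 with it, beside 18.5%. The most abundant genes of this list did not pass. Erc1, which encodes the liprin-binding protein ELKS, had a log2 fold change of -0.15 ± 0.11, Unc13b, a vesicle priming gene, one of -0.04 ± 0.14, and Kif1b, a kinesin gene, one of 0.10 ± 0.11.

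The cortical microtubule platform, where liprin-alpha1 and liprin-beta1 act outside neurons, had 0 called genes of 13 in either edgeR fit, with a median log2 fold change of -0.04. Erc1, Clasp2 and Clasp1, its most abundant members, were at 224 ± 17.4, 146 ± 7.51 and 136 ± 7.96 CPM with ethanol and at 201 ± 29.4, 143 ± 6.96 and 139 ± 12.1 CPM with EPZ5676 (SD, n = 3). CLASP proteins hold the growing ends of microtubules. Genes of adhesion turnover and migration had 0 called of 12 and a median of 0.01. Their most abundant members, Itgb1, Vcl and Ptk2, which encode an integrin subunit, vinculin and focal adhesion kinase, had log2 fold changes of -0.19 ± 0.12, 0.05 ± 0.10 and 0.04 ± 0.09 (SE). The 16 other SAM domain scaffolds had 0 called and a median of 0.09. Tnks2, Samd4b and Tnks led this list by level, with log2 fold changes of -0.12 ± 0.06, 0.22 ± 0.11 and 0.17 ± 0.08. At an unadjusted p under 0.05 these 3 lists had 0, 0 and 1 genes without the block and 5, 1 and 4 with it (18.5% of all genes with the block), and DESeq2 without the block called 0 in each.

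**Figure D4:**
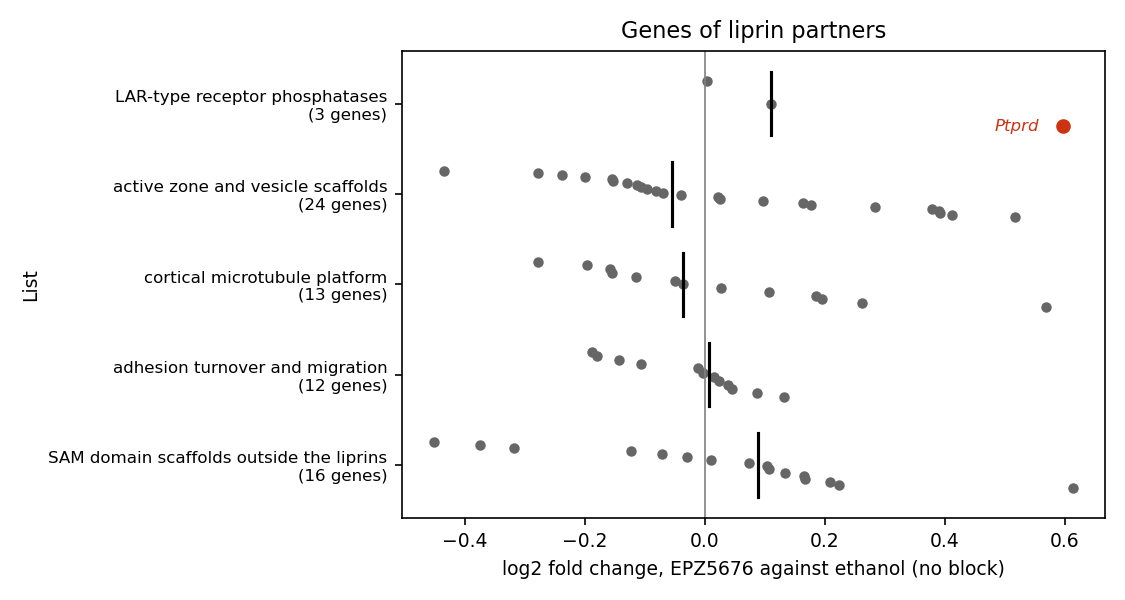
Log2 fold change of each tested gene of the 5 partner lists in the fit without the block (points; Erc1 is in 2 lists), with the list median as a vertical line; the red point is the gene called by edgeR with the replicate block. List medians lie between -0.05 and 0.11, and the red point is Ptprd at 0.60.

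Without pair 1 the blocked edgeR fit called 0 partners and 0 of all genes (0%), and the log2 fold change of Ptprd there was 0.57, against 0.60 with all pairs. Without pair 2 it called 5 partners higher and 2 lower, where 5.36% of all genes were called. Without pair 3 it called 5 partners higher and 1 lower, where 5.1% of all genes were called. Ptprd and Apba2, the latter from the active zone and vesicle scaffolds, were among the higher ones both times.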

How the data were processed

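RNA of the EPZ5676 and ethanol groups was sequenced from 3 stranded mRNA libraries each, per the labels' protocols. The authors deposited whole-number read counts per gene symbol; the mm9 build and the tools STAR, Bowtie, featureCounts and edgeR are named per the submitters' processing notes, without versions, and for the annotation and strand setting the sources used here give nothing. A deposited table of repeat families was not used. Counts were filtered with filterByExpr, scaled by TMM and compared with the quasi-likelihood test of edgeR 4.0.16 in R 4.3.3, 2-sided, with Benjamini-Hochberg adjustment over 14855 genes and a threshold of 0.05; DESeq2 1.42.0 was an alternative. The script was tested on simulated data.

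The model had no replicate block in the first fit (4 residual degrees of freedom) and the replicate number as a block in the second (2). Deviations from the group mean of same-numbered libraries correlated at 0.468, 0.639 and 0.373 across genes, all over 0.1, and other combinations at -0.542 to 0.318. Of those, EPZ5676 1 with ethanol 3 (0.318) and EPZ5676 3 with ethanol 1 (0.149) were over 0.1 too, so libraries 1 and 3 are not clearly told apart by this check. Blocked values are given for some genes, also where no call changes. The labels do not say what the numbers stand for. The lowest chi-square per degree of freedom between any pair of libraries was 3.64, so each differed from the rest beyond sampling noise.

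CPM use TMM-scaled totals. Coding length is that of the longest coding sequence in GENCODE M21 (GRCm38), used in place of the RefSeq protein length first planned. Promoters are RefSeq sequences on GRCm38.p6, not the build of the files, and only their own coordinates are given. Named genes are the 6 liprins, Dot1l, the 5 profiles nearest to Ppfibp2 and the 2 nearest tested genes on each side of Ppfibp2. In each partner list, every gene called by edgeR in either fit of all libraries and the 3 with the highest mean CPM are named. Overlapping genes, some cell type markers and some partners called only in alternatives are named too. The members and lists were chosen with earlier results of these data known. An item of a partner list is not reported here, and counts over the lists are without it.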

Additional observations from a re-analysis of the deposited data

How the results depend on the processing

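Leaving out each library in turn, the log2 fold change ran from -1.26 to -0.93 for Ppfibp2, from -0.29 to -0.25 for Ppfibp1, from 0.07 to 0.16 for Ppfia1, from -0.22 to 0.53 for Ppfia3 and from -0.11 to 0.10 for Ppfia4. In all 18 alternatives run, Ppfibp1, Ppfibp2 and Ppfia1 had the direction given in the text; Ppfia3 changed sign in 4 and Ppfia4 in 3. Changing the scaling, or leaving out both replicate 2 libraries, moved the mean levels of the 5 tested liprins by less than 1 SD. Against 0 called genes and 0 called partners without the block, the fit with the replicate block called 97 genes and 1 partner. DESeq2 called 52 and 1; the blocked fit called 795 and 7 without pair 2, 761 and 6 without pair 3, and 0 and 0 without pair 1. Without both replicate 2 libraries and with no block, 10 genes and 0 partners were called. Among alternatives chosen after seeing the data, the blocked fit with library totals alone called 193 genes and 1 partner, Ptprd, and DESeq2 with the block called 293 genes and 2 partners, Ptprd higher and Sash1 lower. The other scalings, filters and single left-out libraries gave 0 calls without the block; the causes were not tested. Depth limits Ppfia2, with 1 to 3 counts per library.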
